A study of Mus musculus with 16 samples.

Results

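The liver's response to 12 weeks of high-fat feeding was taken as the difference between 8 mice on a high-fat diet and 8 mice on a control diet, over both genotypes of the study. All 16 arrays of the series entered, 1 per animal. Each diet group held 4 mice heterozygous for a null allele of Gli2, written Het below, and 4 wild-type mice, written WT. The groups are therefore Het and WT on the high-fat diet (Het_HFD and WT_HFD) and Het and WT on the control diet (Het_control and WT_control), all of them adult mice sampled from the liver. The genotype field of the wild-type animals names Gli1, while that of the heterozygotes names Gli2. Genotype was a covariate without an interaction term, so the fitted value is an average of the diet differences in Het and WT, which can differ from each other. All 19938 genes that the array's annotation names singly were tested. The sources used here state neither the strain and sex of the mice, nor the composition of the diets, nor how the null allele was made. The number after a group's name only tells its 4 animals apart, in the order they were recorded, and makes no pairs.

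As background, the liver turns dietary sugar into fatty acids by de novo lipogenesis, stores triglyceride in lipid droplets coated by perilipins, and burns fatty acids and amino acid skeletons in its mitochondria. A high-fat diet supplies fatty acids ready-made and over weeks leads to fat storage in hepatocytes and to rising insulin and leptin in many mouse strains. Gli2 is a transcription factor of the hedgehog pathway, which is little used by healthy hepatocytes.

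Levels are log2 values made by the authors with RMA, so 1 unit is a doubling, and each level is set on a scale common to all arrays. Differences are high-fat minus control, with the standard error (SE) of the fit. A gene counts as called at an adjusted p under 0.05 from limma, with Benjamini-Hochberg adjustment over all 19938 genes. SDs over the 8 arrays of a diet contain the genotype difference. Het_control 2 stood apart, with a correlation across genes of 0.961 to 0.979 with the other arrays, against 0.990 to 0.997 among the other 15. Its values also spread less, with an interquartile range of 1.95 against 2.396 to 2.603. The median difference of all genes was -0.04, with 0.05 in the brighter part of the genes and -0.09 in the dimmer part, and without Het_control 2 these were -0.02, 0.03 and -0.05. Hepatocyte markers such as albumin marked all arrays, with a mean level over the 18 markers of 13.21 to 13.30 on the high-fat diet and 13.08 to 13.28 on the control diet. Xist read 12.60 to 12.94 in the 16 animals, and the Y-linked Eif2s3y, Uty and Kdm5d no more than 4.60, 5.65 and 6.62, the pattern of female mice. Gli2 read 7.53 ± 0.07 in Het_HFD and 7.70 ± 0.30 in Het_control, and 7.51 ± 0.08 in WT_HFD and 7.57 ± 0.02 in WT_control (SD, n = 4 each). Its diet difference was -0.11 (SE 0.07, limma adjusted p = 0.305). The sources used here do not state which part of Gli2 the null allele lacks, so the probe set is no check on the genotypes.

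High-fat feeding changed 303 genes, which is 1.52% of those tested. Of these 220 rose, 1.1% of all genes, and 83 fell, 0.416%. The changes were mostly small. The median size among the called genes was 0.32, the smallest 0.18, and 55 differed by more than 0.5, of which 34 rose and 21 fell. Only 9 genes differed by more than 1 either way. The falls were led by the leptin receptor, a fatty acid binding protein and a hepatic uptake transporter, and the rises by enzymes of steroid and drug metabolism, serum amyloid proteins and a protease inhibitor. Without the array that stood apart, 615 genes were called (425 higher, 190 lower), and all 303 were among them. Leaving out 1 array at a time gave between 79 calls, without Het_HFD 4, and 684, without Het_control 4, and 72 genes passed in the fit of all arrays and in each of the 16 reduced fits, 49 of them higher and 23 lower. The other 231 lost their call in at least 1 of the reduced fits.

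The gene with the smallest p was Lepr, the leptin receptor, through which circulating leptin acts and whose soluble form the liver releases. In Het_HFD livers Lepr read 8.59, 8.22, 7.17 and 7.52, and in Het_control livers 10.56, 9.77, 10.85 and 9.12. In WT_HFD livers it read 9.18, 8.73, 8.60 and 9.11, and in WT_control livers 10.55, 10.39, 10.69 and 10.47. The diets did not overlap within either genotype, whereas over all 16 arrays the highest high-fat array (9.18) lay just above the lowest control array (9.12). Lepr fell by 1.91 on the log2 scale (SE 0.23, limma adjusted p = 0.00327), a level 3.76-fold lower on the high-fat diet. In bulk liver, fewer cells of a type and less RNA per cell cannot be told apart, here or for any gene below.

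**Figure D1:**
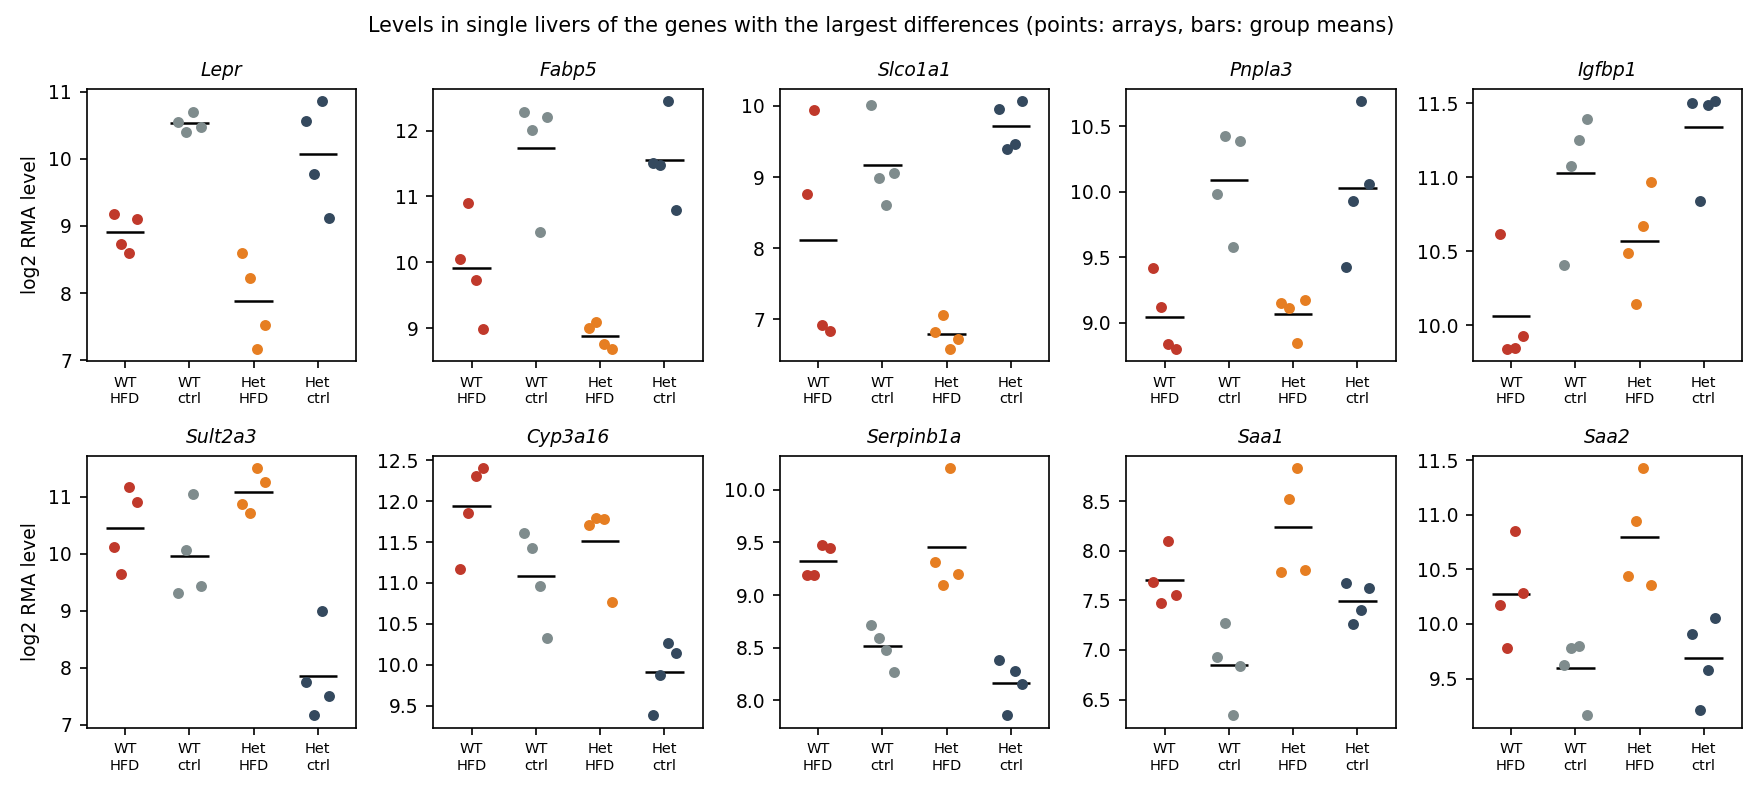
Log2 RMA levels (y axis) of 10 genes with large diet differences in the livers of 4 groups of 4 mice (x axis: WT on high-fat and control diet, then Het on high-fat and control diet); points are single arrays and bars are group means. Lepr and Pnpla3 lie lower on the high-fat diet in both genotypes without overlap, whereas the rise of Sult2a3 is 3.23 in Het and 0.49 in WT.

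Fabp5, a cytosolic carrier of fatty acids best known from skin, adipose tissue and macrophages, had the largest fall. Its level was 8.69 to 10.90 on the high-fat diet (median 9.05), against 10.47 to 12.44 on the control diet (median 11.75). The diets overlapped through WT_HFD 2, which at 10.90 read above WT_control 3 (10.47) and Het_control 4 (10.80). Fabp5 fell by 2.25 (SE 0.30, adjusted p = 0.00496), a level 4.74-fold lower, and both of its probe sets showed it (-2.25 and -2.19). It was the 1 called gene of 15 measured for fatty acid uptake and binding. Cd36, the fatty acid translocase, read 0.81 higher (SE 0.23) and missed the threshold at adjusted p = 0.0814, with 1.44 in Het and 0.19 in WT.

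Slco1a1 encodes an organic anion transporter of the sinusoidal membrane that takes up bile salts, steroid conjugates and drugs, and is expressed more in male than in female mouse liver. It ranged from 6.58 to 9.94 on the high-fat diet (median 6.88), against 8.61 to 10.07 on the control diet (median 9.43). In heterozygotes all 4 high-fat arrays, 6.58 to 7.06, lay below all controls, 9.39 to 10.07. In WT the high-fat arrays fell apart, with 6.84 and 6.91 in 2 livers and 8.77 and 9.94 in the others. The 2 low livers, WT_HFD 4 and WT_HFD 3, share the number 30 in their sample titles, and the others carry 45 and 46. What this number stands for is unstated, and its part in the split was not tested. Slco1a1 fell by 1.99 (SE 0.41, adjusted p = 0.0234) and lost its call in 7 of the 16 fits without 1 array, with adjusted p up to 0.059. Hsd3b5, a steroid reductase of male mouse liver, fell by 1.001 (SE 0.17, adjusted p = 0.0133), and the complement gene C8b by 0.43 (SE 0.09, adjusted p = 0.0288). These were the 3 called genes among 19 male-biased ones, of which 12 were lower in value.

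Pnpla3, a lipid droplet protein acting on triglyceride and retinyl esters, whose gene is switched on by insulin and feeding, separated the diets completely. It read 8.80 to 9.42 on the high-fat diet (median 9.12), against 9.43 to 10.69 on the control diet (median 10.02). Pnpla3 fell by 1.002 (SE 0.15, adjusted p = 0.00823), with -0.96 in Het and -1.05 in WT. The 95% interval of the Het minus WT difference was -0.57 to 0.76. Pltp, which moves phospholipid between plasma lipoproteins, fell by 0.80 (SE 0.12, adjusted p = 0.00659), with 10.87 to 11.39 on the high-fat diet (median 11.12) and 11.41 to 12.49 on the control diet (median 11.92). It too separated all 8 high-fat from all 8 control livers, and was the 1 called gene among 18 of plasma lipoproteins. Complete separation of the 8 arrays of one diet from the 8 of the other was met by 138 genes, 0.692% of all, 82 of them called.

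Other falls concerned hormones and growth factors. Igfbp1, a binding protein for insulin-like growth factors that insulin suppresses, read 9.84 to 10.97 on the high-fat diet (median 10.31), against 10.41 to 11.51 on the control diet (median 11.32). It fell by 0.87 (SE 0.16, adjusted p = 0.0153), and the diets overlapped in each genotype. Egfr, the epidermal growth factor receptor, fell by 0.59 (SE 0.14, adjusted p = 0.0387), with -0.97 in Het and -0.21 in WT. Lepr, Igfbp1 and Egfr were the 3 called genes of 16 on the growth hormone axis list, which also holds Lepr, a cytokine receptor. The growth hormone receptor Ghr (0.08, adjusted p = 0.328), Igf1 (0.04, adjusted p = 0.569) and Socs2 (-0.25, adjusted p = 0.38) did not pass. Smad9, a transducer of bone morphogenetic protein signals, fell by 0.76 (SE 0.14, adjusted p = 0.0158), and the cyclin gene Ccnd1, which drives entry into the cell cycle, by 0.34 (SE 0.07, adjusted p = 0.0237), the 1 called of 28 cell cycle genes.

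The remaining large falls were Chrna4 (-1.28), Gria3 (-0.98), Zbtb16 (-0.95), Ppp1r3g (-0.92), Pdzk1ip1 (-0.91), Cd9 (-0.80) and Acpp (-0.71). Chrna4 and Gria3 encode subunits of nicotinic acetylcholine and AMPA glutamate receptors, and Ppp1r3g brings protein phosphatase to glycogen. Chrna4 overlapped between diets in each genotype and passed at adjusted p = 0.0254. It was lost in 6 of the 16 fits without 1 array, with adjusted p up to 0.0636. Zbtb16, a transcriptional repressor, differed by -1.64 in Het and -0.26 in WT and was lost in 10 of those fits, with adjusted p up to 0.096. Ppp1r3g was also lost in 10 fits, with adjusted p up to 0.0828, and Acpp in 8, with adjusted p up to 0.0627. Gria3, Pdzk1ip1 and the tetraspanin gene Cd9 passed in every fit. In all, 10 of the 15 largest falls and 6 of the 15 largest rises among called genes passed in each of the 16 fits. The other 14 genes were lost in between 1 and 11 fits, with highest adjusted p of 0.0511 to 0.096.

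The largest rise was in Sult2a3, a sulfotransferase for hydroxysteroids and bile acids. It read 9.64 to 11.50 on the high-fat diet (median 10.89), against 7.17 to 11.05 on the control diet (median 9.15). In Het_HFD livers it ranged from 10.72 to 11.50, against 7.17 to 8.99 in Het_control livers, and in WT_HFD livers from 9.64 to 11.17, against 9.32 to 11.05 in WT_control livers. The separation was therefore complete in heterozygotes and absent in WT. Sult2a3 rose 3.64-fold (1.86, SE 0.43, adjusted p = 0.0392) and lost its call in 10 of the 16 fits without 1 array, with adjusted p up to 0.0936. Its Het minus WT difference had the smallest interaction p of the 30 largest changes (2.74, 95% interval 1.51 to 3.97, limma adjusted p = 0.24).

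Cyp3a16, a drug- and steroid-oxidizing cytochrome P450 more abundant in females, read 10.77 to 12.40 on the high-fat diet (median 11.79), against 9.38 to 11.61 on the control diet (median 10.30). It rose by 1.22 (SE 0.23, adjusted p = 0.0182) and passed in every fit without 1 array. With Cyp2b13 (0.35, SE 0.08, adjusted p = 0.0333) it made up the 2 called of 36 drug-metabolizing P450 genes, of which 26 were higher in value, and the same pair were the 2 called of 16 female-biased genes. Cyp2b13 was lost in 12 fits, with adjusted p up to 0.0797. Of 35 genes of conjugation and transport 3 rose and 1 fell, the rises being Sult2a3, the glutathione transferase Gstt3 (0.46) and Abcc3 (0.45). Abcc3, which exports bile acids and glucuronides to the blood, separated the diets completely, with 12.08 to 12.45 on the high-fat diet against 11.34 to 11.92 on the control diet, and was the 1 called of 21 genes of bile acid and sterol handling (adjusted p = 0.0136). Slc10a2, a sodium-dependent bile acid carrier known from gut and bile ducts and not on that list, rose by 0.98 (SE 0.22, adjusted p = 0.0336) and was lost in 9 fits, with adjusted p up to 0.0827. Sult2a3, Cyp3a16, Cyp2b13, Ugt3a1, Ces1b and the Saa and Gbp genes belong to families of closely similar genes, and what their probe sets take up from relatives was not tested.

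Serpinb1a, an inhibitor of neutrophil elastase and related proteases, was the rise with the smallest p. It read 9.09 to 10.21 on the high-fat diet (median 9.26), against 7.86 to 8.72 on the control diet (median 8.33). The diets were apart in all 16 livers, with a 2.07-fold rise (1.05, SE 0.14, adjusted p = 0.00496). Gbp11, an interferon-inducible guanylate binding protein, separated the diets too, with 8.825 to 9.84 (median 9.30) on the high-fat diet, just clear of the 8.11 to 8.815 (median 8.53) on the control diet. It rose by 0.84 (SE 0.13, adjusted p = 0.00823), with 0.80 in Het and 0.88 in WT. Among the other rises, Tlcd2, Ugt3a1, Suox and Abcc3 also put all 8 high-fat livers above all 8 controls. Ugt3a1, a sugar-conjugating enzyme, spread little on the high-fat diet (12.58 ± 0.07) and more on the control diet (11.91 ± 0.46; SD, n = 8 each). The lowest control array was Het_control 2, which stood apart as a whole, at 10.95 against 11.64 to 12.47 in the other controls. Ugt3a1 rose by 0.67 (adjusted p = 0.0284), or by 0.53 without Het_control 2. It was lost in 10 fits, with adjusted p up to 0.0712. Krt23, a keratin (0.77, adjusted p = 0.024), was lost in 8 fits, with adjusted p up to 0.0586. It was the 1 called of 15 bile duct and progenitor markers, of which 12 were lower in value, among them Epcam (-0.14) and Krt19 (-0.12). Ildr2 (0.74) and Nnmt (0.74) missed the threshold without Het_HFD 4 (adjusted p up to 0.0511 and 0.0515), and Nnmt without Het_HFD 3 too.

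Lists of lipid synthesis genes held few calls. Counts of a list are to be read against all genes, of which 1.1% rose and 0.416% fell. Their median difference was -0.04, and 59.6% had a difference below 0. The median was 0.05 in the brighter part of the genes and -0.09 in the dimmer part, and the share below 0 was not counted for each part. Calls were commoner among bright genes, and most pathway lists are bright: in the brighter part of the genes 1.90% rose and 0.522% fell, and in the dimmer part 0.311% did each. Of 25 genes of de novo lipogenesis 2 fell, none rose, 19 were lower in value, and the median was -0.16. The 2 were Pnpla3 and Acacb, the mitochondrial acetyl-CoA carboxylase whose malonyl-CoA product restrains fatty acid oxidation. Acacb fell by 0.52 (SE 0.13, adjusted p = 0.0497) and was lost in 12 of the 16 fits, with adjusted p up to 0.109. The cytosolic carboxylase Acaca, which feeds fatty acid synthesis, read 11.16 on the high-fat diet and 11.77 on the control diet, a difference of -0.61 that missed the threshold (SE 0.15, adjusted p = 0.0526). Fatty acid synthase Fasn (-0.35, adjusted p = 0.165), the elongase Elovl6 (-0.37, adjusted p = 0.146) and the desaturase Scd1 (-0.16, adjusted p = 0.129) did not pass either, and Srebf1, the transcription factor of the pathway, read 0.19 (adjusted p = 0.224). Without Het_control 2, 4 members fell and the median was -0.19. Of 20 sterol synthesis genes 0 were called by limma and 1 had an unadjusted p under 0.05, and their median was 0.05, or -0.0036 after a repeated quantile normalization. Scap, which escorts sterol regulatory proteins from the endoplasmic reticulum and was on neither list, fell by 0.25 (adjusted p = 0.0333).

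Lipid droplet genes split. Of 22, Pnpla3, Plin4 and Plin5 fell and Fitm1 rose. Plin5, the perilipin of oxidative tissues that ties droplets to mitochondria, read 9.11 to 9.39 (median 9.30) on the high-fat diet, against 9.29 to 9.92 (median 9.68) on the control diet, and fell by 0.37 (SE 0.07, adjusted p = 0.0196). Plin4, its neighbour in the genome, read 8.18 to 8.48 (median 8.33), against 8.42 to 8.84 (median 8.70), and fell by 0.35 (SE 0.05, adjusted p = 0.00579). Plin2, the main perilipin of hepatocytes, read -0.15 (adjusted p = 0.126), and Cidec, which fuses droplets, -0.02 (adjusted p = 0.812). Fitm1, which partitions triglyceride into droplets, rose by 0.83 (SE 0.18, adjusted p = 0.0333), with 9.68 to 10.78 on the high-fat diet and 8.80 to 10.13 on the control diet, and was lost in 8 fits, with adjusted p up to 0.0816. Of 32 genes of fatty acid oxidation limma called 0, although 27 were higher in value and 10 had an unadjusted p under 0.05, with a median of 0.14. The smallest p among them were those of Eci3 (0.65, adjusted p = 0.0821) and Acadm (0.28, adjusted p = 0.0928).

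**Figure D2:**
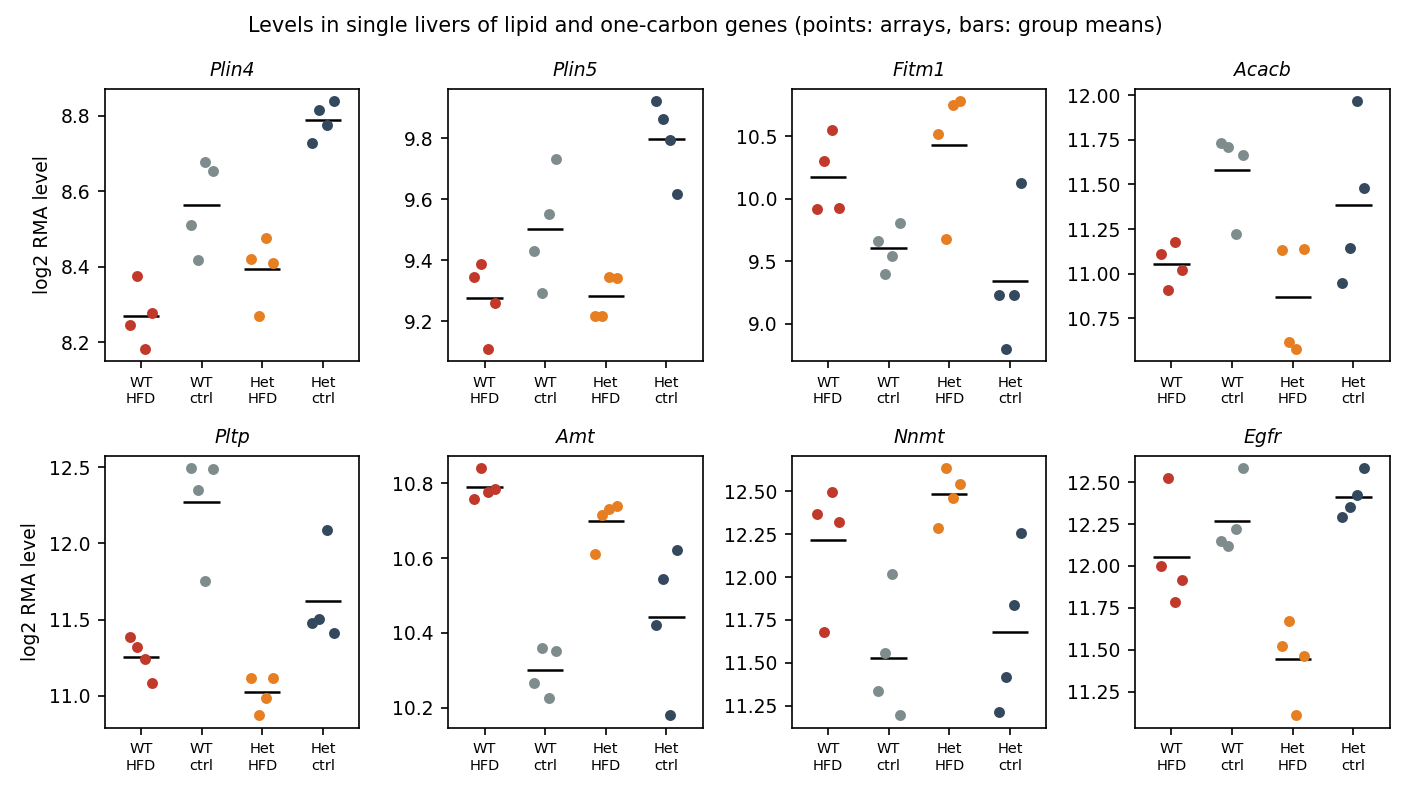
Log2 RMA levels (y axis) of 8 called genes of lipid handling, one-carbon metabolism and growth factor signalling by group (x axis: WT on high-fat and control diet, then Het on high-fat and control diet); points are single arrays and bars are group means. Plin4 and Pltp lie lower on the high-fat diet in both genotypes, Amt lies higher, and Egfr differs by -0.97 in Het and -0.21 in WT.

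Genes of amino acid breakdown, much of which takes place in mitochondria, were mostly higher in value, and 10 of them rose, of which 0 passed in all 16 limma fits without 1 array. The 4 lists of this paragraph and the next were drawn up after the called genes had been seen, so their counts only describe them. Of 25 genes of leucine, isoleucine and valine breakdown 6 rose and none fell, 24 were higher in value, and the median was 0.28, with 0.33 in Het and 0.20 in WT. Without Het_control 2, 8 rose and the median was 0.22. Mccc1 and Mccc2, the subunits of methylcrotonyl-CoA carboxylase in the leucine pathway, rose by 0.40 (adjusted p = 0.0229) and 0.31 (adjusted p = 0.0219), and each separated all 8 high-fat livers from the 8 controls. Ivd, the step before them, rose by 0.31 (adjusted p = 0.0254). Dbt, a core subunit of the branched-chain ketoacid dehydrogenase, rose by 0.43 (adjusted p = 0.0448), and Ppm1k, the phosphatase that activates this complex, by 0.52 (adjusted p = 0.0411). Its kinase Bckdk (0.04) and the subunit Bckdha (-0.02) did not pass. Of 14 genes of lysine and tryptophan breakdown 4 rose and all were higher in value, with a median of 0.22. They were Slc25a21 (0.56), the mitochondrial carrier of oxoadipate, Ido2 (0.31), Aldh7a1 (0.27) and Gcdh (0.19), with adjusted p up to 0.0497.

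**Figure D3:**
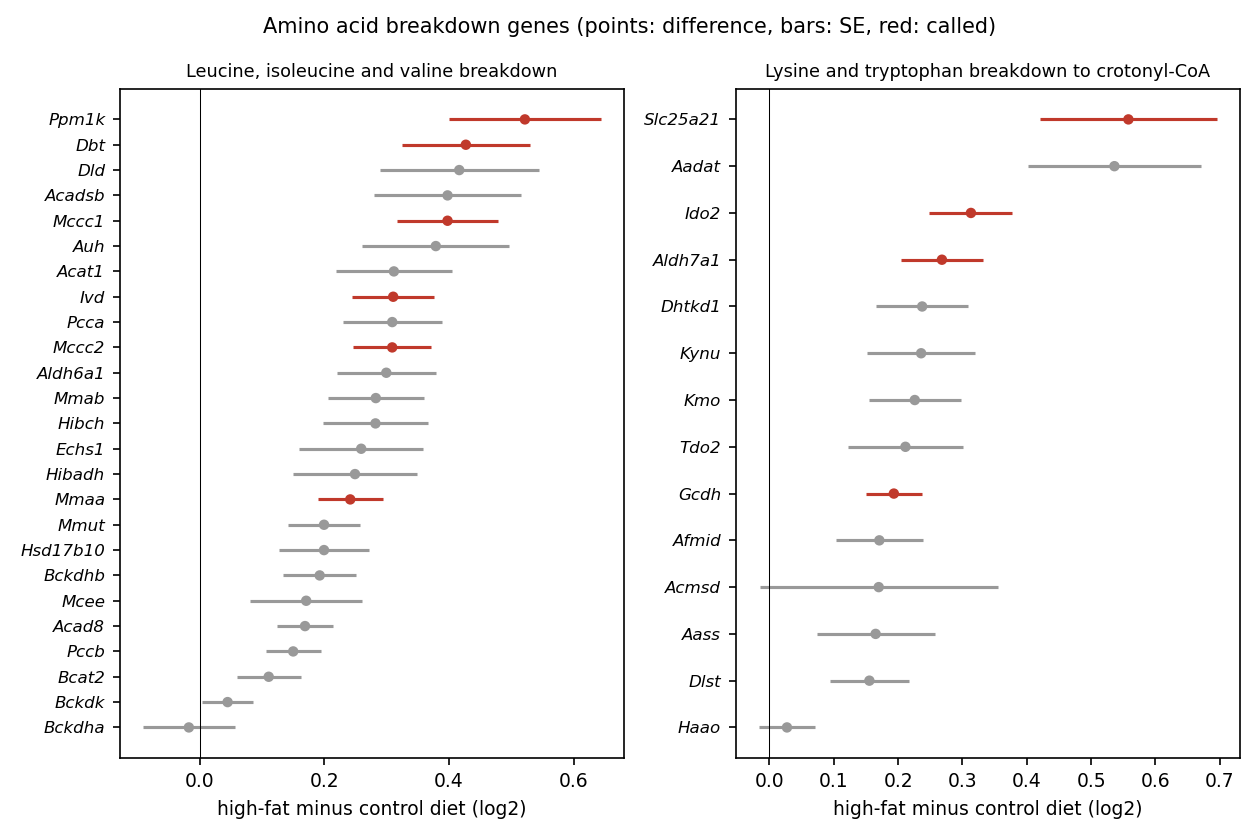
High-fat minus control difference (x axis, log2) of genes that break down leucine, isoleucine and valine (left, 25 genes) and lysine and tryptophan (right, 14 genes); points are differences over 16 arrays, bars are their SE, and called genes are in red. All but Bckdha, at -0.02, lie above 0, and 6 and 4 of the genes were called.

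Genes that maintain mitochondrial proteins were mostly higher in value too. Of 40 genes for mitochondrial proteases, translation and import 10 rose, none fell and 35 were higher in value, with a median of 0.19, and 5 of the 10 passed in all 16 fits without 1 array. They included the matrix protease Lonp1 (0.28, adjusted p = 0.0136), the peptidase Mipep (0.34, adjusted p = 0.0136), the disaggregase Clpb (0.26, adjusted p = 0.0182), the tRNA-modifying Mto1 (0.43, adjusted p = 0.0188) and the RNA-degrading Pnpt1 (0.63, adjusted p = 0.0343). Of 30 respiratory chain subunits 1 rose, Ndufv1 of complex I (0.22, SE 0.05, adjusted p = 0.025). Molybdenum cofactor enzymes gave 4 rises among 12, of which 2 passed in all 16 of those fits, with a median of 0.16. Aox1, an aldehyde oxidase, read 10.74 to 11.20 on the high-fat diet (median 10.89), against 10.16 to 10.74 on the control diet (median 10.35), and rose by 0.57 (adjusted p = 0.00659). Its genomic neighbour Aox3 rose by 0.32, Mocs1, of cofactor synthesis, by 0.36, and sulfite oxidase, Suox, by 0.65 (SE 0.14, adjusted p = 0.0302). Suox was lost in 7 fits, with adjusted p up to 0.0728.

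One-carbon and glycine metabolism gave 3 rises among 20 genes, 19 of them higher in value, with a median of 0.18 in each genotype. Amt, the aminomethyltransferase of glycine cleavage, read 10.61 to 10.84 (median 10.75) on the high-fat diet, against 10.18 to 10.62 (median 10.36) on the control diet, and rose by 0.37 (SE 0.06, adjusted p = 0.012). Nnmt, which methylates nicotinamide with S-adenosylmethionine, rose by 0.74 (SE 0.15, adjusted p = 0.0217), and Aldh7a1 completes the 3. Dglucy, a D-glutamate cyclase, was among the genes with the smallest p and separated the diets completely, with 10.12 to 10.47 on the high-fat diet and 9.58 to 10.07 on the control diet (0.48, SE 0.07, adjusted p = 0.00568). Of 22 genes of the Nrf2 oxidative stress response 2 rose, the epoxide hydrolase Ephx1 (0.48, adjusted p = 0.0319) and the glutathione peroxidase Gpx1 (0.20, adjusted p = 0.0363). They were lost in 9 and 10 of the 16 fits, with adjusted p up to 0.0775 and 0.0828.

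Most of the acute phase genes that rose belong to one family. Of 26, Saa1, Saa2, Saa4 and Steap4 rose and none fell, while the median of the list was 0.06. Saa2 read 9.78 to 11.43 on the high-fat diet (median 10.40), against 9.16 to 10.06 on the control diet (median 9.70). Saa1 read 7.47 to 8.83 (median 7.79), against 6.34 to 7.67 (median 7.27). These serum amyloid proteins, secreted by hepatocytes under cytokine signals, rose by 0.89 (SE 0.18, adjusted p = 0.0213) and 0.80 (SE 0.15, adjusted p = 0.0196). Saa4 rose by 0.50 (SE 0.10, adjusted p = 0.0242), and Steap4, an iron reductase, by 0.34 (SE 0.07, adjusted p = 0.0234). Saa4 was lost in 6 fits, with adjusted p up to 0.0595, and Steap4 in 3, those without WT_HFD 4, Het_HFD 3 and Het_HFD 4 (highest adjusted p 0.0585). The 3 Saa genes lie side by side. The neutrophil marker and acute phase gene Lcn2 read 0.65 higher and did not pass (adjusted p = 0.0662).

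Genes that interferons induce were higher in places. Of 21 on the list only Gbp3 was called (0.46, SE 0.11, adjusted p = 0.0427), which 11 of the 16 fits lost (adjusted p up to 0.0931), whereas 19 were higher in value, with a median of 0.17, 0.29 in Het and 0.06 in WT. Among the called genes 12 that interferons are known to induce were singled out after their values had been seen. They are Gbp3, Gbp11, Irf1, Trim12c, Trim14, Dhx58, Cd274, Il15, Tmem140, AW112010, Serpinb9 and Pnpt1, with rises of 0.30 to 0.84, and 0.23 to 0.80 in Het and 0.23 to 0.88 in WT. Only Gbp11, Trim14 and Dhx58 passed in all 16 fits without 1 array, and each of the others lost its call in at least 1. Macrophage and Kupffer cell markers differed in value beside these and the acute phase genes in Het. Of 30 such markers 25 were higher in value, with a median of 0.37 in Het and -0.05 in WT, and 1 was called, Cd9, which fell. Their mean level per array was 9.41 to 10.02 on the high-fat diet and 9.32 to 9.71 on the control diet. Their part in these rises was not tested. Lymphocyte, neutrophil, endothelial, stellate, adipocyte, muscle, pancreas and gut markers held 0 genes called by limma and 31 with an unadjusted p under 0.05, and the medians of these lists lay between -0.12 and 0.01.

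For 8 of the 12 genes RefSeq's table for GRCm38.p6 held a promoter, 250 bases before to 50 after the start site. The interferon element, searched as GAAA, any 2 bases and GAAA on both strands, was found in 4 of them, Gbp3, Tmem140, Trim12c and Serpinb9, and in 1131 of all 32851 promoters of the table (3.44%). The 4 and the 8 count genes, with a match in any promoter of the gene, whereas the 32851 are single promoters, of which a gene can have several. The shares are therefore in unlike units. The search was made after the genes had been chosen, so these shares are a description. The 4 windows are shown because they hold the shared letters near the start sites of called genes. Each runs 5′ to 3′ on the gene's strand, with the match in capitals, and where the match is on the other strand the capitals read TTTC, 2 bases and TTTC. The Gbp3 promoter holds a further match that overlaps the one shown.
Gbp3, chr3:142559974-142560033, plus strand: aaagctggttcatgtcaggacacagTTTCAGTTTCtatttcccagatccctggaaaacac
Tmem140, chr6:34863058-34863117, plus strand: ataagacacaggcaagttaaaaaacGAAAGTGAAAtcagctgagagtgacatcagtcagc
Trim12c, chr7:104353344-104353403, minus strand: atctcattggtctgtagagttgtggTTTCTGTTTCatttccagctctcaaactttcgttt
Serpinb9, chr13:33004470-33004529, plus strand: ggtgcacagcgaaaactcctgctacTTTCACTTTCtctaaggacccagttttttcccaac

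The fall of Igfbp1 was set beside its promoter, since the letters CAAAACAA of the insulin response element known from the human gene are also in the mouse window. They occur on either strand in 825 of the 32851 promoters (2.51%), and were searched for after Igfbp1 had been called. The match, in capitals, begins 108 bases before the start site.
Igfbp1, chr11:7197654-7197711, plus strand: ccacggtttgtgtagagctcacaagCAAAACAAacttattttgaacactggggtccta
The direct repeat bound by nuclear receptors, searched on both strands as AGGNCA, any 1 base and AGGNCA (0.381% of all promoters), was in none of the promoters of the 4 called lipid droplet genes. The STAT element TTCNNNGAA (both strands, 8.30%) was in none of those of the 3 called growth hormone axis and 3 called male-biased genes. With so few promoters and shares this low, finding no match tells little about these genes.

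Small nucleolar RNAs and ribosomal protein genes were lower in value on the high-fat diet. Of 55 small nucleolar RNAs, which guide the modification of ribosomal RNA, 5 fell, none rose and 47 were lower in value; the median was -0.23 (-0.26 in Het and -0.07 in WT). This direction was not particular to them. Of 302 microRNAs 257 were lower in value (median -0.10), and of 2257 predicted or olfactory genes 1983 (median -0.11). Limma called 1 fall among the microRNAs, and 4 rises and 6 falls among the predicted or olfactory genes. Without Het_control 2, 9 small nucleolar RNAs fell and their median was -0.18. The medians of the microRNAs and of the predicted or olfactory genes were then -0.058 and -0.057. In the fit of all arrays these 2 classes had medians of -0.15 and -0.17 in Het, and -0.04 and -0.03 in WT. The largest fall was that of Snord49b, whose levels of 9.35 to 10.39 on the high-fat diet (median 10.20) lay below the 10.48 to 10.997 on the control diet (median 10.70) in all livers. It fell by 0.67 (SE 0.12, adjusted p = 0.0156), and Snord52, Snord33, Snord53 and Snord49a by 0.49, 0.43, 0.41 and 0.34. Among all 60 cytosolic ribosomal protein genes 58 were lower in value, and 4 fell, Rpl37a by 0.30, Rpl26 by 0.28, Rpl27a by 0.26 and Rps4x by 0.26, with adjusted p of 0.0296 to 0.0497. Gas5, a host of several small nucleolar RNAs, read -0.23 (adjusted p = 0.0782).

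Other lists held few calls. Of 21 pericentral hepatocyte genes 2 rose, the ammonium transporter Rhbg (0.54, adjusted p = 0.0392) and the retinal dehydrogenase Aldh1a1 (0.47, adjusted p = 0.0497), and of 16 periportal ones limma called 0, with 2 at an unadjusted p under 0.05. Among 14 carboxylesterases Ces1b rose by 0.46 (adjusted p = 0.0336). Of 20 genes of the circadian clock 0 were called by limma and 5 had an unadjusted p under 0.05, with Rgs16 at -0.66 (adjusted p = 0.0645) and Per3 at 0.18 (adjusted p = 0.121). Limma also gave 0 calls among 19 hedgehog pathway genes, 24 of the endoplasmic reticulum stress response, 9 of class II antigen presentation and 30 of chemokine, cytokine and lipopolysaccharide sensing, with 5, 1, 0 and 8 at an unadjusted p under 0.05. Gli1, the hedgehog target, read -0.13 (SE 0.04, adjusted p = 0.11). Igfbp1 was the 1 called of 20 genes of glycolysis and gluconeogenesis, and Pck1, of gluconeogenesis, read -0.01 (adjusted p = 0.94). Without Het_control 2 the interferon list had 2 rises, the bile acid list 2 rises and 1 fall, the fatty acid uptake list 1 rise and 1 fall, the bile duct list 1 of each, and the hedgehog and gut lists 1 rise each. Egfr, C8b, Gstt3, Ces1b, Aldh7a1, Ccnd1, Rps4x, Ndufv1, Rhbg and Aldh1a1 lost their call in 5 to 12 of the 16 fits without 1 array, with highest adjusted p of 0.0585 to 0.112. Called genes that adjoin in the genome formed 14 pairs, 10 of them moving in one direction. With 72.6% of all called genes higher, like directions are common, and no background for such pairs was computed. In opposite directions went the steroid enzymes Hsd3b5 (-1.001) and Hsd3b2 (0.44), and Zbtb16 (-0.95) and Nnmt (0.74).

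**Figure D4:**
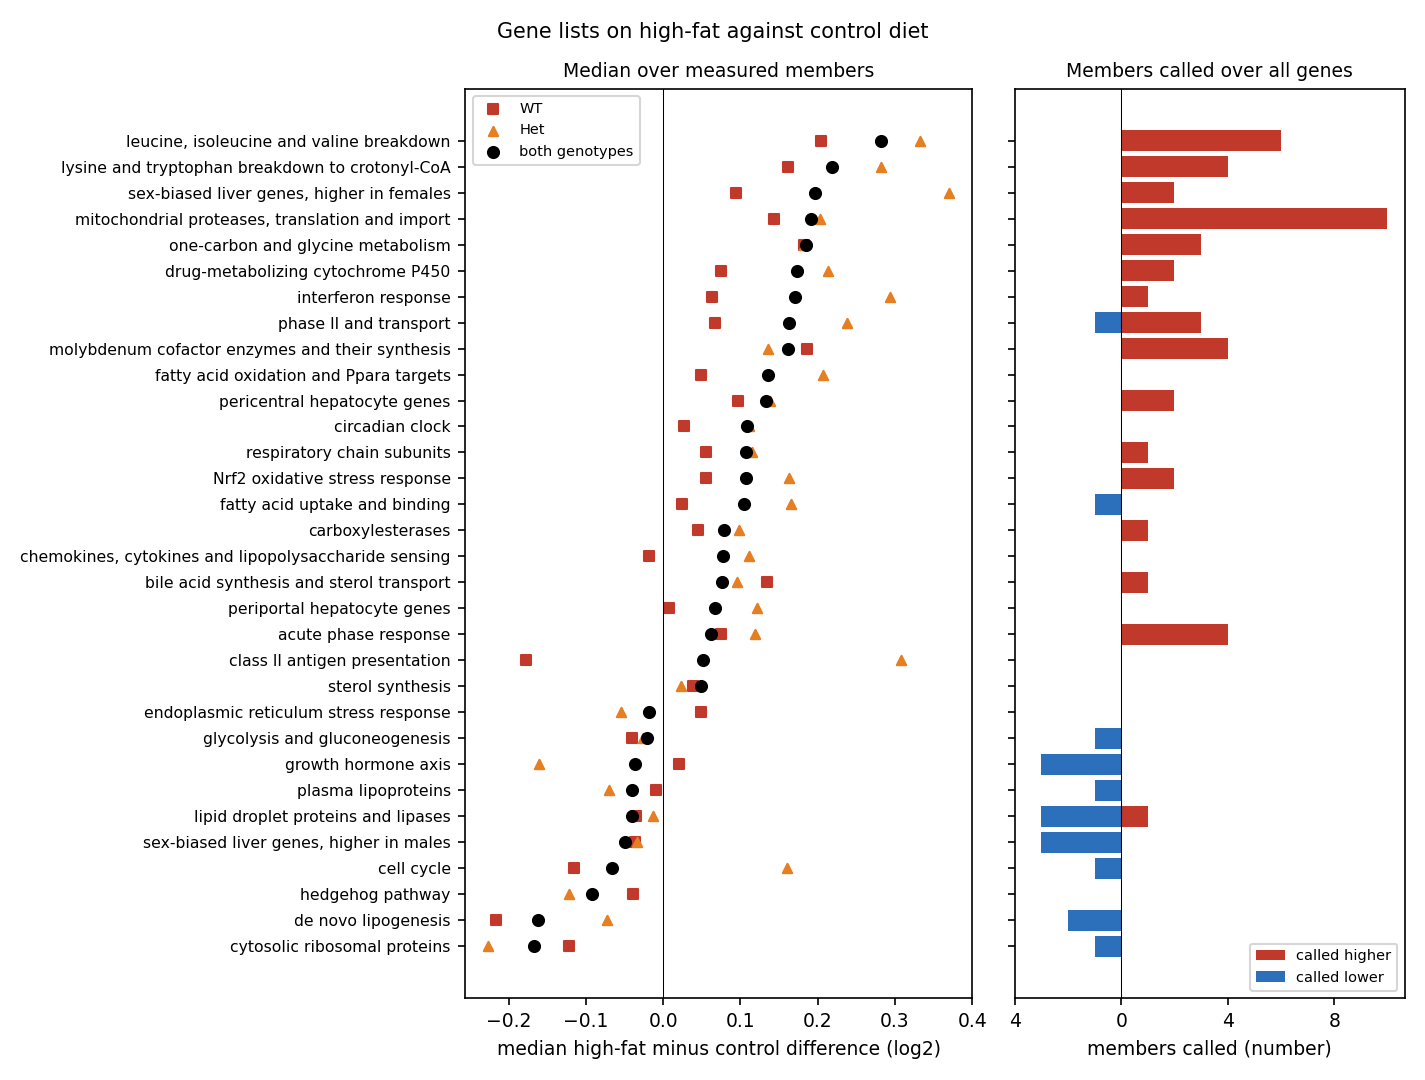
Median high-fat minus control difference of gene lists (left, x axis in log2; squares WT, triangles Het, circles both genotypes) and number of members called higher (red, to the right of 0) or lower (blue, to the left) over all genes (right). Amino acid breakdown lists have the highest medians, 0.28 and 0.22, and ribosomal protein and de novo lipogenesis lists the lowest, -0.17 and -0.16; the 4 lists named for amino acids, mitochondrial proteases and molybdenum were drawn up after the called genes were seen.

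The genes whose levels ran most like Lepr over the 16 arrays were Epas1 (r = 0.92), Fto (0.90), Tgfbr3 (0.90), Nrn1 (0.89) and Ldb1 (0.89), and those that ran most opposite were Grid1 (-0.94), Taco1, Galnt10, Dexi and Mgmt. The 16 points share the diet difference itself. Within groups, after removing group means, the correlations with the first 5 were 0.41 to 0.81. Epas1, a hypoxia-inducible factor, fell by 0.23 (adjusted p = 0.0274) and Tgfbr3, a coreceptor of transforming growth factor beta, by 0.23 (adjusted p = 0.0242). Fto (-0.12), Nrn1 (-0.18) and Ldb1 (-0.18) did not pass. Grid1, a glutamate receptor subunit, rose by 0.55 (SE 0.08, adjusted p = 0.00568).

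The response was set against the differences within each genotype. All 303 called genes had the same sign in Het and in WT, which choosing them by the pooled difference favours, against 69.8% of all genes. The median size of the difference among them was 0.363 in Het and 0.277 in WT, and 220 were larger in Het, a share below the 74.8% of all genes that were. Over all genes the median size was 0.142 in Het and 0.066 in WT. Het_control 2, the array that stood apart, enters only the Het differences, which were not examined without it. In the fit of 4 group means, which estimates the spread over all 16 arrays, limma called 442 genes for diet within Het and 0 within WT, where 1282 genes had an unadjusted p under 0.05. Fits of 8 arrays of 1 genotype called 7 genes in Het and 6 in WT, so the contrast between 442 and 0 was not seen there. Of the 303, 140 were also among the 442, which is 46.2% of the pooled calls and 31.7% of the Het calls in the fit of 16 arrays. The test of a Het minus WT difference called 0 genes (smallest adjusted p 0.240), with 1621 at an unadjusted p under 0.05, or 8.13% of all genes. Among the 303 pooled calls 19 had such a p, 6.27%. A missed threshold does not show that the genotypes responded alike, and for 3 of the 30 largest changes the 95% interval of the Het minus WT difference left out 0. Besides Sult2a3 they were Slco1a1 (-1.87, interval -3.36 to -0.38, adjusted p = 0.529) and Zbtb16 (-1.38, interval -2.03 to -0.73, adjusted p = 0.248).

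**Figure D5:**
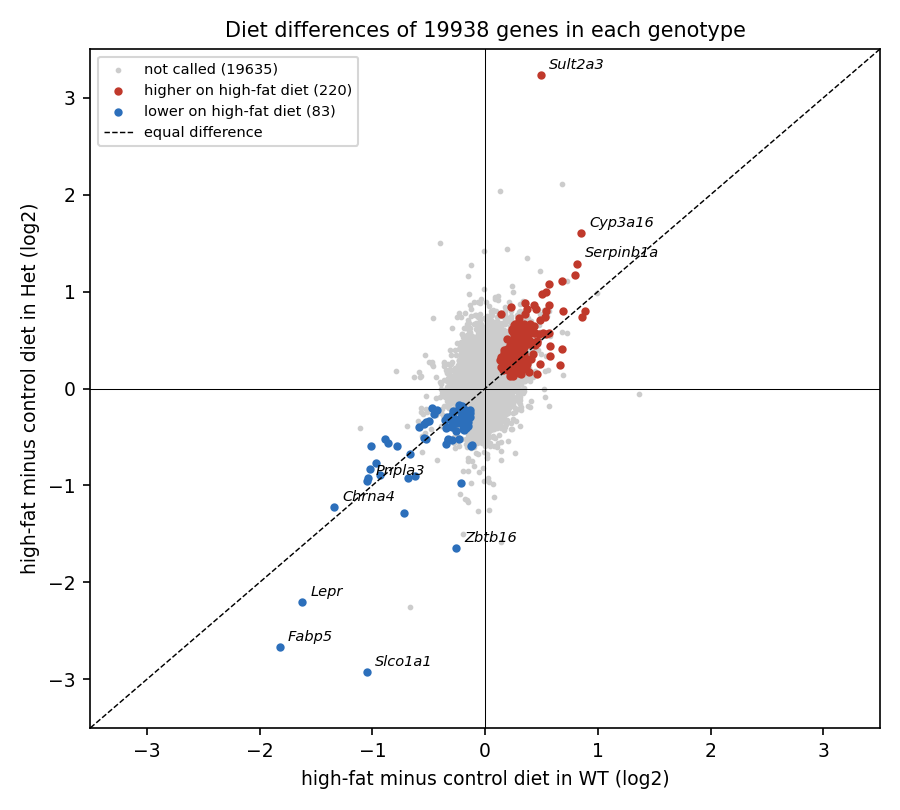
High-fat minus control difference of 19938 genes in WT (x axis, log2) and in Het (y axis, log2); red and blue points are genes called higher (220) or lower (83) over both genotypes, grey points the rest, and the dashed line marks equal differences. All called genes lie in the quadrants of equal sign, with Lepr at -2.20 in Het and -1.62 in WT and Sult2a3 at 3.23 in Het and 0.49 in WT.

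By values alone, the diets did not overlap within Het and within WT, in the same direction, for 250 genes, 1.25% of all. Of these 142 were higher on the high-fat diet (0.712%) and 108 lower (0.542%), and 121 of the 250 were called. Lepr, Pnpla3, Pltp, Cd9, Gria3, Serpinb1a, Gbp11 and Saa1 were among them. The sample titles carry a number of unstated meaning, and only 1 of the 11 numbers occurred on both diets, in WT_HFD 2 and WT_control 1. Between these animals 286 of the 303 called genes had the pooled sign, against 70.45% of all genes. The pooled sign is favoured because both arrays entered the pooled fit, by which the called genes were also chosen. Among the 30 largest changes 28 had it, all but Zbtb16 (0.24) and Smad9 (0.18).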

How the data were processed

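RNA from each liver was labelled and hybridised to Affymetrix MoGene 1.0 ST arrays, per the labels' protocols. The authors deposited log2 values, 1 per probe set, and the submitters' processing notes name RMA and Affymetrix Expression Console, without versions. RMA corrects the background, brings the arrays to 1 distribution by quantile normalization and summarises probes, so a shift of all transcripts would be lost. Of 35556 probe sets, 21789 have 1 gene symbol in the platform annotation, 1621 several and 12146 none, and only the first were used. Symbols were updated through a RefSeq table (GRCm38.p6), which matched 19856 of 19938 genes. For the 999 genes with more than 1 probe set, the brightest on average was taken.

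Differences were fitted with limma 3.58.1 in R 4.3.3 (statmod 1.5.0 for the random block), with diet and genotype as additive terms and eBayes without trend or robust settings. A fit with 4 group means gave the differences within each genotype and their difference. The fit was tested on simulated data. Genes were named by a rule: the called genes with the 15 largest rises and 15 largest falls of one sign in both genotypes, predicted genes left out, the 5 smallest p, up to 4 called members of each of 39 gene lists (2 members where none was called), Gli1 and Gli2. The members and lists were chosen with earlier results of these data known. Genes outside the rule, the 4 added lists and the searched promoters were chosen after their values were seen. No lists were tested as sets. The design text describes separate animals, and p-values measure the spread between them. The number of arrays, 8 per diet, limits the precision.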

Additional observations from a re-analysis of the deposited data

Results flagged for a closer look

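In groups of 4, a single array lay far from the other 3 for 23 of the 356 combinations of named gene and group examined (6.46%), a share near the 5% that this criterion gives by chance. WT_control 3 gave 8 of them, with Fabp5 at 10.47, Acacb at 11.22, Steap4 at 11.12, Ctss at 9.91 and Smo at 8.93 below the other 3 arrays, and Grid1 at 8.47, Uroc1 at 11.91 and Car3 at 13.80 above them. For Fabp5 the other 3 read 12.00 to 12.28, and for Acacb 11.66 to 11.73, so this array drew both control means towards the high-fat diet.

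Het_control 2, the array that stood apart as a whole, was low for Igfbp1 (10.84, against 11.49 to 11.51) and high for Gli2 (8.14, against 7.501 to 7.591). Het_control 3 was high for Pltp (12.08) and Rgs16 (13.28). On the high-fat diet, Het_HFD 1 was high for Per3 (10.60) and Col4a1 (8.98) and low for Ces1b (12.19) and Car3 (13.77). Het_HFD 2 was high for the class II gene H2-DMa (9.87, against 9.05 to 9.10) and for Rps4x (11.89). Het_HFD 4 was low for Cyp3a16 (10.77, against 11.71 to 11.80) and Ighm (8.30). WT_HFD 1 was high for Igfbp1 (10.62, against 9.84 to 9.93) and low for Cyp3a11 (12.64), and WT_HFD 3 was high for Lipe (9.84).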

How the results depend on the processing

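The number of called genes, 303, depended on the fit. It was 1252 with array weights, 550 where the number in the titles was a random block, 99 over all probe sets in place of genes, and 55 with a difference over 0.5 required besides. The 8 Het arrays fitted alone gave 7 and the 8 WT arrays 6. Without 1 array it ranged from 79 to 684. Quantile normalization repeated gave 257 calls (165 higher, 92 lower, 211 of them among the 303) and centring each array on its median 338 (273 higher, 65 lower), with the median of all genes at -0.02 and -0.01 against -0.04. The brighter part of the genes, trend and robust moderation, the mean of a gene's probe sets, group means, and no genotype term gave 284 to 371 calls. The random block kept all 303 and array weights 302. Of the 11 title numbers 5 were held by more than 1 array, and only 1 occurred on both diets. The estimated correlation within a number was negative, at -0.11. This fit therefore makes no allowance for likeness between animals that share a number. Genes whose diets did not overlap in either genotype numbered 250, 192 after repeated quantile normalization (104 higher, 88 lower), and 270 to 519 without 1 array, where smaller groups overlap less. The test between genotypes called 0 genes under each alternative run for it, repeated quantile normalization, trend and robust moderation and each array left out.

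Of 53 named genes that were called, 47 to 53 kept the call under settings that used all arrays and genes, and 23 to 53 without 1 array; none changed sign. Named genes that were not called changed sign in 3 cases: Pdia4 read -0.052 with the mean of its probe sets, and Ctss and H2-DMa -0.015 and -0.188 in WT alone. List medians that changed sign without a single array, among them those of class II antigen presentation, endothelial and sterol synthesis genes, have no settled direction. No paired analysis was possible because the replicate numbers follow record order and pair no animals. With 8 arrays per diet, the smallest difference called was 0.18.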
